A study of Mus musculus with 18 samples.

Results

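Egr1, Fos, Fosl1, Jun, Junb, Ier2, Ier3, Etv1, Etv4 and Etv5 are 10 genes that the kinase ERK is known to induce. They were chosen by name as ERK-induced transcription factor genes and matched through their Ensembl identifiers, with no measured value in the rule, although earlier results of these data were known, and they are 10 of the 53801 genes counted. All 10 were among the 18469 genes that passed the filter on low counts and were tested.

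RNA-seq was performed on mouse embryonic stem cells (ESCs) as they left naive pluripotency, with 3 libraries in each of 6 groups and 18 libraries in all. WT cells were the parental line E14, and iEZR_CA cells were an E14-derived line in which doxycycline switches on a phosphomimetic, constitutively active ezrin together with an mCherry reporter. Each line was collected in the naive medium 2i+LIF (ESC, 0 h) and again in N2B27 medium without these factors, at 24 h (T24) and 48 h (T48). Doxycycline was given to the iEZR_CA line starting about 16 h ahead of exit. No doxycycline is given for the WT cells, so the transgene, the drug and any difference between the 2 lines vary together and cannot be told apart.

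ERK is the last kinase of the RAS, RAF and MEK cascade, which FGF4 activates in ESCs to drive their exit from naive pluripotency. The medium 2i+LIF contains PD0325901, an inhibitor of MEK, so the ESC groups were grown with the cascade blocked and the T24 and T48 groups without the inhibitor. Immediate early genes such as Egr1 and Fos are transcribed within minutes of ERK activation, largely through serum response factor and its ternary complex partners, and their mRNAs are short-lived. Etv1, Etv4 and Etv5 form the PEA3 group of ETS factors, slower targets of FGF signaling that the repressor capicua holds down until ERK relieves it.

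Promoter windows are shown for the 3 Fos and Jun family genes for which RefSeq sequences were at hand, because Fos and Junb fell as cells left 2i+LIF whereas Jun rose. Each window runs from 250 bases before to 50 bases after the RefSeq gene start (build GRCm38.p6), 5′ to 3′ on the strand of the gene. Capitals mark matches, on either strand, to the motifs TGACG (the half-site of the cAMP response element), TGAATGGA (a capicua site) and TATAAA (the TATA box). The Fos window lies at chr12:85473640-85473939 on the plus strand, the Junb window at chr8:84978699-84978998 and the Jun window at chr4:95052173-95052472, both on the minus strand.
Fos: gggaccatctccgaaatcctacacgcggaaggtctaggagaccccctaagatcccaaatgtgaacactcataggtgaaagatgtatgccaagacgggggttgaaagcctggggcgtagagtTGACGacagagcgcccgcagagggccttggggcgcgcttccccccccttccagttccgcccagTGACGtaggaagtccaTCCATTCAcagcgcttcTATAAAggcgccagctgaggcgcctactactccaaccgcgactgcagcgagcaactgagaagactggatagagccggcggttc
Junb: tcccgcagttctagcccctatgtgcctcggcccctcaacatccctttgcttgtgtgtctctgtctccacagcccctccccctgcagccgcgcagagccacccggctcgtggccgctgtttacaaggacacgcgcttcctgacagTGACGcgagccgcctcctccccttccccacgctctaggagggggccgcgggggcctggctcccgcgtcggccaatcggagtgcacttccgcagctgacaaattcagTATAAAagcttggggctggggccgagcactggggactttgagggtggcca
Jun: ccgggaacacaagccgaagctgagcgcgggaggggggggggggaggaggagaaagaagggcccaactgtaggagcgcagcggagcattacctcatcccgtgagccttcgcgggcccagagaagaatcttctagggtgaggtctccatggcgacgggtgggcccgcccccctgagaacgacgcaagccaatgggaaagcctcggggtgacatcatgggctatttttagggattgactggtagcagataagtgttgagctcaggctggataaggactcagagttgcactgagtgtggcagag

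With the RefSeq gene start counted as 1, the Fos window held TGACG at -129 to -125 and at -66 to -62, TGAATGGA on the opposite strand at -50 to -43, and TATAAA at -33 to -28. The Junb window held TGACG at -106 to -102 and TATAAA at 1 to 6. GENCODE M21 starts Junb further downstream, at 84978718, and with that start TATAAA would lie upstream of it. For Fos and Jun both annotations give the same start. The Jun window held no exact match to any of the 9 motifs searched. It does hold TGACATCA, which differs by 1 base from the full cAMP response element TGACGTCA, and such near matches were not counted. Among the 32851 promoter windows of the table, 20.8% held TGACG, 13.6% TATAAA and 1.21% TGAATGGA. Both TGACG and TATAAA were added to the motifs after the windows had been searched and the values of the genes seen. The other 6 motifs, none of which matched a window of these genes, were the CArG box of serum response factor (in 1.63% of all windows), the AP-1 site TGANTCA (7.81%), the full cAMP response element TGACGTCA (1.79%), of which TGACG is a part, the capicua site TGAATGAA (1.3%), the ETS site CCGGAAG (8.86%) and the STAT site TTCNNNGAA (8.3%). The windows reach only 250 bases upstream, so a site farther out, such as a CArG box, would not be seen. Egr1 had no window. Windows were found for 6 of the 10 genes (Fos, Jun, Junb, Ier3, Etv1 and Etv5; 8 windows). Those of Ier3 and Etv5 held no match, and 1 of the 2 windows of Etv1 held TATAAA at -114 to -109 on the opposite strand.

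Libraries are named by a replicate number that follows accession order within a group and comes from no label. By their titles, WT libraries held wells A11 to A12 and iEZR_CA libraries B12 to H12. The exceptions were iEZR_CA replicate 3 at T24 (G9) and at T48 (H9). Line and well thus vary together, and the part of well position in the results was not tested. Gene counts per library ran from 10940752 to 33276622. Replicates were distinct libraries, since each of the 18 pairs gave a chi-square of 1.55 to 3.33 per degree of freedom. Low-quality alignments took 0.519% to 0.612% of WT reads and 0.889% to 1.02% of iEZR_CA reads, and the part of this difference in the results was not tested. Ezr, the gene of the induced protein, was checked first. Its normalized counts were 12017, 11805 and 11467 in WT ESCs, 7890.0, 7703 and 7539 in WT T24 cells and 10095, 10508 and 9683 in WT T48 cells. In iEZR_CA cells they were 25358, 24372 and 24728 in ESCs, 21299, 20185 and 20894 at T24 and 16067, 16393 and 16186 at T48, so each iEZR_CA library lay above each WT library of its stage, and the counts do not separate transgene from endogenous reads. The ES cell identity of the samples was checked with 7 naive markers, whose summed level was 5846 to 5910 CPM (counts scaled to a fixed library total) in WT ESCs and 5305 to 5334 in iEZR_CA ESCs. It was 2343 to 2371 in WT and 3293 to 3327 in iEZR_CA cells at T24, and 824 to 870 in WT and 1190 to 1266 in iEZR_CA cells at T48. Most of the sum in WT T48 cells was Pou5f1, with 13126 ± 583 normalized counts against 10869 ± 85.1 in iEZR_CA T48 cells (SD, n = 3). The other 6 markers were called higher in iEZR_CA cells at T48, such as Esrrb with 379 ± 30.2 in WT and 2596 ± 91.7 in iEZR_CA cells.

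The first comparison asked how the genes changed as WT cells left 2i+LIF. Egr1, Jun and Fosl1 rose, Fos and Junb fell, Etv1, Etv4, Etv5 and Ier2 rose to T24 and fell afterwards, and Ier3 rose after T24. Fos and Junb, although listed as ERK-induced, were thus highest in ESCs, where the medium held the MEK inhibitor. Counts were tested with edgeR's quasi-likelihood test over all genes, and a gene was called when its Benjamini-Hochberg adjusted p-value was under 0.05. Of the 10 genes, 7 rose and 2 fell from ESC to T24, where 31.8% of all genes tested were called higher and 33.6% lower. From ESC to T48, 6 rose and 4 fell (all genes, 37.1% and 37.4%), and from T24 to T48, 3 rose and 5 fell (all genes, 32.8% and 32.9%). The median log2 fold changes of the 10 genes were 0.50, 0.17 and -0.38 in these comparisons, which share libraries with one another. Normalized counts below are counts divided by the size factor of the library.

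**Figure D1:**
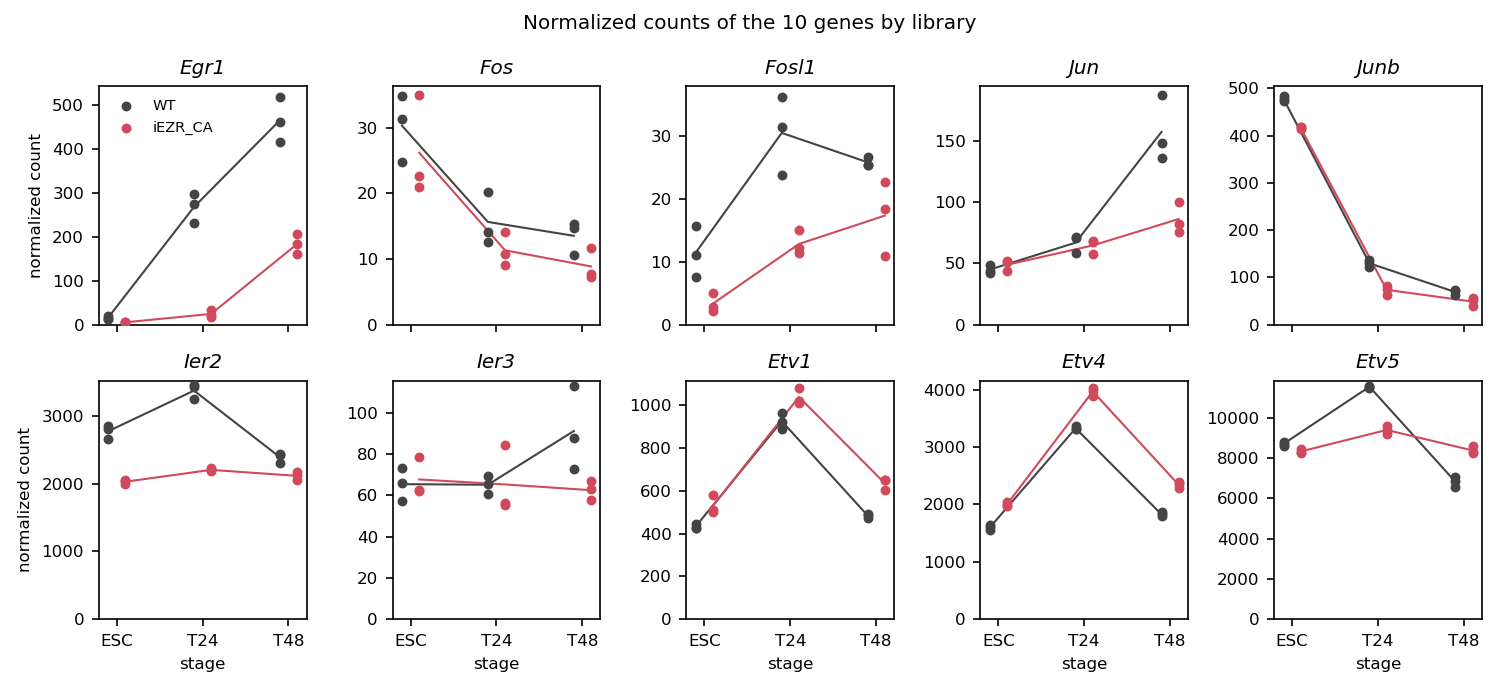
Normalized counts (linear axis from 0) of the 10 genes in each library, by stage; points are libraries, lines join the means of the 3 libraries of a group, WT in grey and iEZR_CA in red. Egr1 sits at 232 to 297 in WT and 17.5 to 32.7 in iEZR_CA cells at T24, whereas Etv4 lies higher in iEZR_CA than in WT cells at each stage.

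Egr1 (ENSMUSG00000038418), a zinc finger factor widely used as a readout of ERK, showed the largest change of the 10. In WT ESCs its normalized counts were 13.5, 19.9 and 13.6, at T24 they were 274, 297 and 232, and at T48 they were 417, 461 and 517. No library of one stage overlapped another stage. Egr1 rose 16.7-fold from ESC to T24 (log2 fold change 4.06, SE 0.163, adjusted p = 1.9e-31 by edgeR) and 1.71-fold from T24 to T48 (0.77, SE 0.0882, adjusted p = 1.4e-11 by edgeR). In iEZR_CA cells the normalized counts were 5.54, 4.19 and 5.60 in ESCs, 17.5, 32.7 and 22.5 at T24, and 205, 184 and 161 at T48. All 3 iEZR_CA T48 libraries lay below the lowest WT T24 library. Within the iEZR_CA line Egr1 rose 5.02-fold to T24 (log2 fold change 2.33, SE 0.385, adjusted p = 4.5e-07 by edgeR) and a further 7.22-fold to T48 (2.85, SE 0.162, adjusted p = 9.2e-24 by edgeR).

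Between the lines Egr1 was the lower in iEZR_CA libraries at all 3 stages, without overlap. It was 3.18-fold lower in ESCs (log2 fold change -1.67, SE 0.424, adjusted p = 6.2e-04 by edgeR), 10.6-fold lower at T24 (-3.40, SE 0.151, adjusted p = 6.9e-29 by edgeR) and 2.50-fold lower at T48 (-1.32, SE 0.0926, adjusted p = 1.3e-19 by edgeR). The value in ESCs rests on few reads, 54 over the WT libraries and 14 over the iEZR_CA libraries, and the ratio of the lines per read counted on genes was 0.309 with an exact 95% interval of 0.159 to 0.565 that covers counting error only. At T24 the reads numbered 867 and 80 (ratio 0.0983, interval 0.0772 to 0.124). The change from ESC to T24 was smaller in iEZR_CA than in WT cells (difference -1.73, SE 0.565, adjusted p = 0.0109 by edgeR), although without iEZR_CA ESC replicate 1 it was -1.66 with an adjusted p of 0.0528. The change from ESC to T48 did not pass (difference 0.34, SE 0.442, adjusted p = 0.564 by edgeR).

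Fos, Fosl1, Jun and Junb encode subunits of AP-1, the dimeric factor that binds the TGANTCA element. Fos (ENSMUSG00000021250, chromosome 12, 85473890 to 85477273) was sparse in every group. In WT cells its normalized counts were 24.7, 31.4 and 34.9 in ESCs, 14.2, 20.2 and 12.6 at T24, and 14.7, 15.3 and 10.6 at T48, and in iEZR_CA cells they were 21.04, 22.6 and 35.0, then 10.8, 9.12 and 14.1, then 11.7, 7.69 and 7.19. The ESC libraries of each line lay above its later libraries, and the lines overlapped at all 3 stages. Fos fell from ESC to T24 by 1.96-fold in WT cells (log2 fold change -0.97, SE 0.266, adjusted p = 0.00104 by edgeR) and by 2.25-fold in iEZR_CA cells (-1.17, SE 0.309, adjusted p = 8.6e-04 by edgeR). Between the lines its log2 fold changes of -0.28, -0.48 and -0.54 in ESCs, at T24 and at T48 did not pass. Only 30 to 104 reads were counted on Fos per group, and the interval of the ratio of the lines reached from 0.594 to 1.11 in ESCs, from 0.470 to 1.17 at T24 and from 0.415 to 1.14 at T48.

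Fosl1 (ENSMUSG00000024912, chromosome 19, 5447547 to 5455946), which encodes FRA1, moved with exit in the opposite direction to Fos. In WT cells it had normalized counts of 15.7, 7.65 and 11.1 in ESCs, 23.8, 36.3 and 31.5 at T24 and 25.5, 26.8 and 25.4 at T48. In iEZR_CA cells it had 2.21, 5.02 and 2.80, then 12.1, 11.4 and 15.0, then 10.9, 18.5 and 22.8. Each iEZR_CA library lay below each WT library of its stage. Fosl1 was 3.05-fold lower in iEZR_CA ESCs (log2 fold change -1.61, SE 0.488, adjusted p = 0.00383 by edgeR) and 2.29-fold lower at T24 (-1.20, SE 0.290, adjusted p = 2.7e-04 by edgeR), and at T48 its log2 fold change of -0.60 had an adjusted p of 0.0583 by edgeR, which became 0.0269 without iEZR_CA T48 replicate 3. Its rise from ESC to T24 was 2.64-fold in WT and 3.51-fold in iEZR_CA cells, with no difference that passed (0.41, SE 0.577, adjusted p = 0.625 by edgeR). Fosl1 shares 2767 bases with Ccdc85b on the opposite strand. The strand setting of the counting is not given in the sources used here, so how reads of the shared stretch were assigned is not known.

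Jun (ENSMUSG00000052684, chromosome 4, 95049034 to 95052222) showed no difference past the threshold between the lines until T48. In ESCs its normalized counts were 43.8, 42.1 and 48.5 in WT and 50.9, 43.5 and 51.8 in iEZR_CA cells, and at T24 they were 71.5, 70.7 and 58.3 against 67.4, 57.7 and 68.5. At T48 they were 136, 187 and 148 in WT and 100.4, 82.3 and 75.5 in iEZR_CA cells. The lines overlapped at the first 2 stages and separated at T48, where Jun was 1.73-fold lower in iEZR_CA cells (log2 fold change -0.79, SE 0.126, adjusted p = 1.0e-07 by edgeR). From ESC to T48 Jun rose 3.34-fold in WT and 1.80-fold in iEZR_CA cells, and this difference passed (-0.89, SE 0.223, adjusted p = 6.3e-04 by edgeR). The early rise of Jun in iEZR_CA cells, from ESC to T24 (0.40, adjusted p = 0.0408 by edgeR), did not pass without iEZR_CA ESC replicate 1 or 2 or iEZR_CA T24 replicate 1 or 3 (adjusted p = 0.0559 to 0.193), with no filter on low counts (0.0634), nor by DESeq2 (adjusted p = 0.132). The gene shares 689 bases with the antisense gene Junos, and how reads of the shared stretch were assigned is not known.

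Junb (ENSMUSG00000052837, chromosome 8, 84974484 to 84978718), which LIF as well as ERK is known to induce, fell most. Its normalized counts were 477, 483 and 473 in WT ESCs, 136, 122 and 131 at T24 and 63.4, 72.7 and 70.4 at T48. In iEZR_CA cells they were 417, 413 and 417, then 82.3, 63.1 and 75.0, then 51.0, 55.4 and 39.6. No libraries of the 2 lines or of 2 stages within a line overlapped. The fall from ESC to T24 was 3.69-fold in WT cells (log2 fold change -1.88, SE 0.0851, adjusted p = 2.3e-30 by edgeR) and 5.79-fold in iEZR_CA cells (-2.53, SE 0.0998, adjusted p = 2.3e-33 by edgeR), and the difference passed (-0.65, SE 0.141, adjusted p = 1.2e-04 by edgeR, and -0.62 with 0.0609 under spike-in scaling). Between the lines Junb was lower in iEZR_CA cells by log2 fold changes of -0.21 in ESCs, -0.86 at T24 and -0.44 at T48 (adjusted p = 0.0106, 6.8e-09 and 0.00887 by edgeR). Spike-in scaling left only the difference at T24 past the threshold. The others were then -0.15 in ESCs (SE 0.148, adjusted p = 0.497 by edgeR) and -0.44 at T48 (SE 0.206, adjusted p = 0.0782). DESeq2 did not call the difference in ESCs (adjusted p = 0.107), and the one at T48 had an adjusted p of 0.0603 by edgeR without iEZR_CA T48 replicate 3. The gene shares 351 bases with Prdx2 on the opposite strand.

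Junb and Ier2 lie on chromosome 8, whose other 957 genes tested had median log2 fold changes of 0.18, 0.21 and 0.18 in iEZR_CA against WT cells at the 3 stages, while the medians of all genes were near 0. Relative to their chromosome, Junb lay at -0.38, -1.07 and -0.62, and Ier2 at -0.64, -0.83 and -0.35. Both genes thus lay farther below their chromosome than below the whole genome. The part of the chromosome's shift in these values was not tested.

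Within each library the reads of the 4 AP-1 genes were divided by exon length and expressed as shares of their sum. Junb held 86.4% ± 1.08 of the ESC sum in WT (SD, n = 3) and 86.6% ± 1.54 in iEZR_CA cells, and fell to 30.7% ± 1.92 and 34.8% ± 3.75 at T48. At T24 Jun held 21.1% ± 1.86 in WT and 32.0% ± 0.808 in iEZR_CA cells, and its shares at T48 were 50.2% ± 2.84 and 44.5% ± 4.10. The T24 libraries of the lines did not overlap for the share of Jun (two-sided exact permutation test, p = 0.1, the smallest that 3 libraries against 3 allow). With 3 libraries a group, no comparison of shares could reach a p-value under 0.05.

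**Figure D2:**
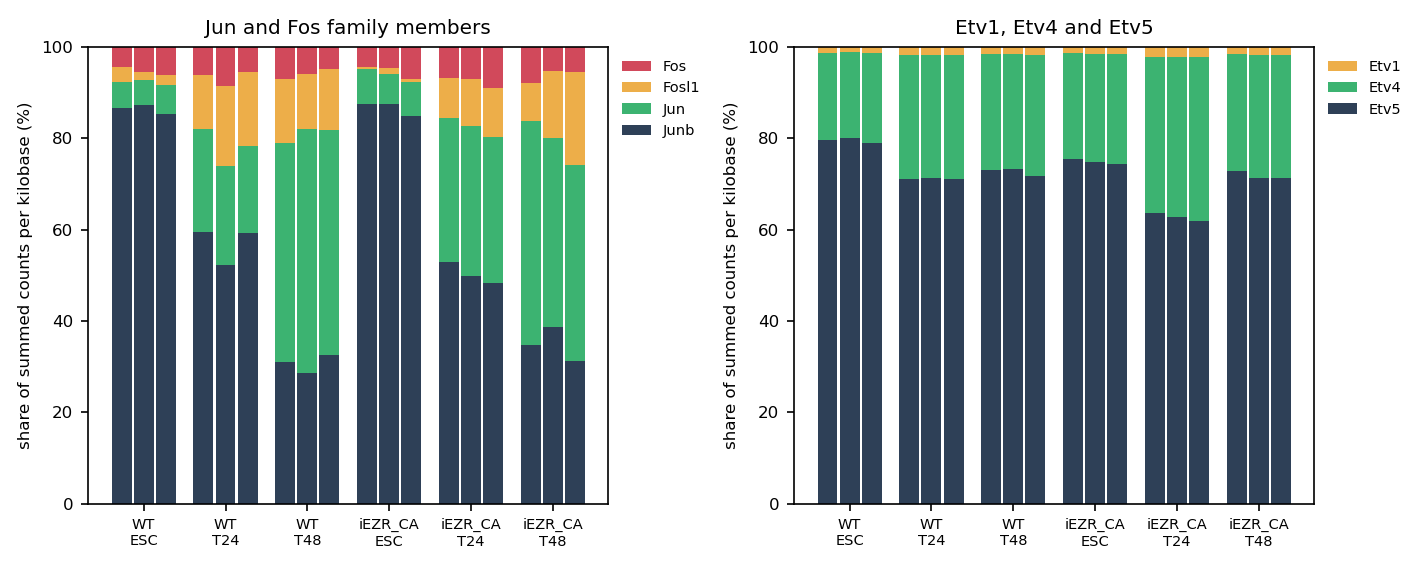
Share of each gene (percent, axis from 0) in the summed counts per kilobase of the Jun and Fos family members (left) and of Etv1, Etv4 and Etv5 (right); each bar is 1 library, 3 per group. Junb gives way to Jun as both lines leave 2i+LIF, and Etv4 takes 35.1% of the Etv sum in iEZR_CA cells at T24 against 27.1% in WT cells.

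Ier2 encodes a small nuclear protein that takes part in transcription, and Ier3 encodes a regulator of apoptosis. Ier2 (ENSMUSG00000053560, chromosome 8, 84661331 to 84662852) had normalized counts of 2669, 2807 and 2859 in WT ESCs against 2043, 2001 and 2052 in iEZR_CA ESCs. At T24 it had 3433, 3456 and 3252 against 2232, 2185 and 2205, and at T48 2449, 2432 and 2305 against 2176, 2125 and 2055. The lines did not overlap at any stage. Ier2 was lower in iEZR_CA cells by log2 fold changes of -0.46 (SE 0.0344) in ESCs, -0.62 (SE 0.0336) at T24 and -0.17 (SE 0.0346) at T48, with adjusted p-values of 5.5e-19, 8.0e-26 and 2.4e-05 by edgeR. With libraries scaled to spike-in RNA the difference at T48 was -0.12 and did not pass (adjusted p = 0.496 by edgeR). Across exit the gene rose and then fell in WT cells (log2 fold changes 0.27 to T24 and -0.51 from T24 to T48), whereas in iEZR_CA cells it rose by 0.12 to T24 (0.27 with an adjusted p of 0.0921 under spike-in scaling) and did not pass between T24 and T48 (-0.05, adjusted p = 0.174 by edgeR). Its change from ESC differed between the lines at T24 by -0.16 (SE 0.0481, adjusted p = 0.00662 by edgeR, and 0.135 with no filter on low counts) and at T48 by 0.29 (SE 0.0488, adjusted p = 5.6e-07 by edgeR). With spike-in scaling these differences were -0.14 (SE 0.179) and 0.28 (SE 0.180), and neither passed (adjusted p = 0.741 and 0.304 by edgeR). On that scale the fall of Ier2 from ESC to T48 in WT cells became a log2 fold change of 0.031 (adjusted p = 0.839 by edgeR), while the median gene lay 0.26 higher at T48.

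Ier3 (ENSMUSG00000003541, chromosome 17, 35821684 to 35822923) lay between 55.3 and 84.4 normalized counts in every library of the groups other than WT T48. In WT T48 cells it had 113, 88.0 and 72.8, against 66.9, 63.1 and 57.6 in iEZR_CA T48 cells. All 3 WT libraries lay above the iEZR_CA libraries, and WT replicate 1 was the highest. At T48 the lines differed by a log2 fold change of -0.54 (SE 0.157, adjusted p = 0.00205 by edgeR), and without WT T48 replicate 1 it was -0.31 with an adjusted p of 0.145. In ESCs and at T24 the log2 fold changes were 0.01 and 0.04 (SE 0.168 and 0.169), neither past the threshold. The rise in WT cells from ESC to T48 (log2 fold change 0.47, adjusted p = 0.00562 by edgeR) was likewise 0.22 with an adjusted p of 0.266 without that library, and the rise from T24 to T48 (0.52, adjusted p = 0.00310 by edgeR) was 0.28 with an adjusted p of 0.178.

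Of the PEA3 factors, Etv1 and Etv4 were higher in iEZR_CA cells at every stage, whereas Etv5 changed sides between T24 and T48. Etv4 (ENSMUSG00000017724, chromosome 11, 101769742 to 101785371) had normalized counts of 1597, 1552 and 1633 in WT ESCs against 1968, 1994 and 2033 in iEZR_CA ESCs. At T24 it had 3309.7, 3307 and 3359 against 3892, 3977 and 4033, and at T48 1858, 1793 and 1826 against 2291, 2382 and 2347. The lowest iEZR_CA library lay above the highest WT library at each stage. The log2 fold changes were 0.32 (SE 0.0344), 0.26 (SE 0.0305) and 0.36 (SE 0.0334), with adjusted p-values of 1.8e-12, 2.9e-11 and 4.4e-15 by edgeR. From ESC to T24 Etv4 rose 2.07-fold in WT and 1.98-fold in iEZR_CA cells, and the difference between these changes did not pass (-0.06, SE 0.0460, adjusted p = 0.322 by edgeR).

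Etv1 (ENSMUSG00000004151, chromosome 12, 38779380 to 38870484) followed the same course at a lower level. Its normalized counts were 428, 428 and 446 in WT ESCs and 502, 509.8 and 578 in iEZR_CA ESCs. They rose to 889, 924 and 966 in WT and 1083, 1021 and 1013 in iEZR_CA cells at T24, and were 492, 474 and 487 against 603, 650.1 and 652 at T48. No library of one line reached the other at any stage. The lines differed by log2 fold changes of 0.27 (SE 0.0607), 0.17 (SE 0.0489) and 0.39 (SE 0.0575), with adjusted p-values of 1.1e-04, 0.00179 and 2.1e-08 by edgeR. With spike-in scaling Etv1 was not called in ESCs (log2 fold change 0.34, SE 0.139, adjusted p = 0.0509 by edgeR) or at T24 (0.24, SE 0.133, adjusted p = 0.145). Its rise from ESC to T24 was 2.10-fold in WT and 1.96-fold in iEZR_CA cells. At T48 Etv1 was still called above its ESC level in WT cells (0.15, adjusted p = 0.0233 by edgeR), which did not pass without WT ESC replicate 1 or 2 or WT T48 replicate 1 or 3 (adjusted p = 0.0539 to 0.0745), with no filter on low counts (0.155), nor by DESeq2 (adjusted p = 0.0515).

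Etv5 (ENSMUSG00000013089, chromosome 16, 22381309 to 22439719) was the only one of the 10 genes called lower in iEZR_CA cells at one stage and higher at another. In ESCs its normalized counts were 8720.5, 8808 and 8603 in WT and 8439, 8251 and 8296 in iEZR_CA cells, and at T24 they were 11475, 11555 and 11598 against 9608, 9372 and 9207. At T48 they were 7048, 6879 and 6538 against 8609, 8303 and 8228. The lines were apart at each stage, with WT cells above at the first 2 and iEZR_CA cells above at T48. The log2 fold changes were -0.07 in ESCs (SE 0.0264, adjusted p = 0.0167 by edgeR), -0.30 at T24 (SE 0.0261, adjusted p = 5.6e-16 by edgeR) and 0.30 at T48 (SE 0.0266, adjusted p = 4.3e-16 by edgeR). The small difference in ESCs was lost without WT ESC replicate 2 (adjusted p = 0.0639), without iEZR_CA ESC replicate 3 (just above 0.05), with only the ESC libraries in the fit (0.0553) and with no filter on low counts (0.0737). With spike-in scaling Etv5 was not called at T24 either (log2 fold change -0.22, adjusted p = 0.147 by edgeR). Over time, Etv5 rose from ESC to T24 by 1.31-fold in WT and 1.13-fold in iEZR_CA cells and then fell by 1.70-fold and 1.12-fold. Its rise from ESC to T24 was thus smaller in iEZR_CA cells (difference -0.22, SE 0.0371, adjusted p = 8.4e-07 by edgeR). The change from ESC to T48 also differed (0.38, SE 0.0375, adjusted p = 1.6e-13 by edgeR). Etv5 had then fallen below its ESC level in WT cells, with no change past the threshold in iEZR_CA cells. With spike-in scaling these 2 differences were -0.21 (SE 0.176) and 0.37 (SE 0.176), and neither passed (adjusted p = 0.558 and 0.129 by edgeR). On that scale the fall of Etv5 from ESC to T48 in WT cells (-0.11, adjusted p = 0.449) did not pass either. Nor did its fall from T24 to T48 in iEZR_CA cells (-0.06, adjusted p = 0.744).

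As shares of the 3 PEA3 genes per kilobase of exon, Etv5 held 79.5% ± 0.599 of the ESC sum in WT (SD, n = 3) and 74.8% ± 0.534 in iEZR_CA cells, 71.1% ± 0.142 and 62.8% ± 0.849 at T24, and 72.7% ± 0.742 and 71.8% ± 0.872 at T48. Etv4 held most of the rest, with 19.2% and 23.7%, 27.1% and 35.1%, and 25.7% and 26.5%. The difference in the share of Etv5 was -4.73 percentage points in ESCs and -8.35 at T24 (exact permutation test, two-sided, p = 0.1 for each), and -0.87 at T48 (p = 0.2), where the libraries of the lines overlapped.

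**Figure D3:**
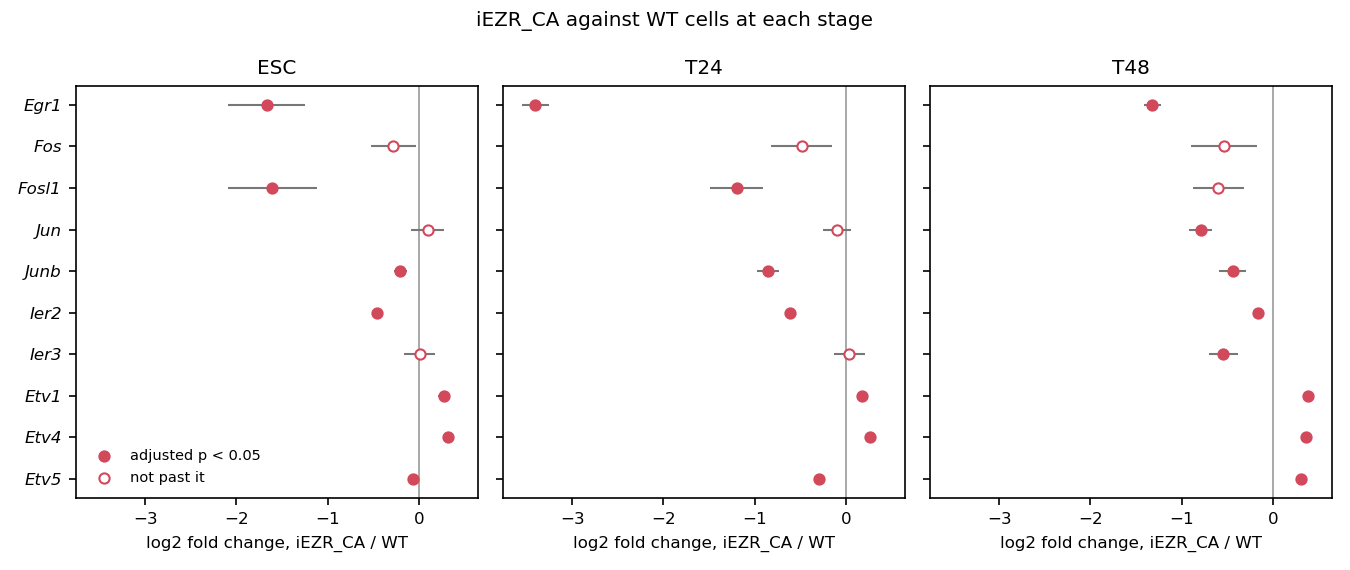
Log2 fold change, iEZR_CA over WT, of the 10 genes at each stage, with bars of 1 SE; filled points have an adjusted p-value under 0.05 by edgeR. Egr1 lies at -1.67, -3.40 and -1.32, and Etv4 at 0.32, 0.26 and 0.36.

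Counted over the 10 genes, iEZR_CA ESCs had 2 above and 5 below WT ESCs, where 26.4% of all genes tested were called higher and 28.1% lower. The T24 comparison gave 2 above and 5 below (all genes, 30.8% and 30.1%). The T48 comparison gave 3 above and 5 below (all genes, 31.0% and 30.1%). The genes called higher were Etv1 and Etv4 at all 3 stages and Etv5 at T48. Egr1, Junb and Ier2 were lower at all 3 stages, with Fosl1 and Etv5 in ESCs and at T24 and Jun and Ier3 at T48. The median log2 fold changes of the 10 genes were -0.14, -0.39 and -0.49, against -0.0092, -0.0020 and 0 over all genes tested.

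Over time in iEZR_CA cells, 7 of the 10 genes rose and 2 fell from ESC to T24 (all genes, 27.1% and 28.9%). From ESC to T48, 5 rose and 2 fell (35.2% and 35.0%), and from T24 to T48, 2 rose and 4 fell (29.6% and 30.0%). The changes from ESC were then compared between the lines. At T24 the change was lower in iEZR_CA than in WT cells for 4 genes (Egr1, Junb, Ier2 and Etv5) and higher for 0, at T48 it was higher for 2 (Ier2 and Etv5) and lower for 2 (Jun and Ier3). Over all genes the T24 difference was called higher for 21.5% and lower for 16.9%, and the T48 difference for 25.7% and 20.0%. With spike-in scaling 1656 genes were called higher and 760 lower at T24, and 2241 and 1640 at T48, with 1 of the 10 genes lower at each time and 0 higher. Of these 10 genes, Etv1, Etv4, Fos and Fosl1 passed at neither time.

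**Figure D4:**
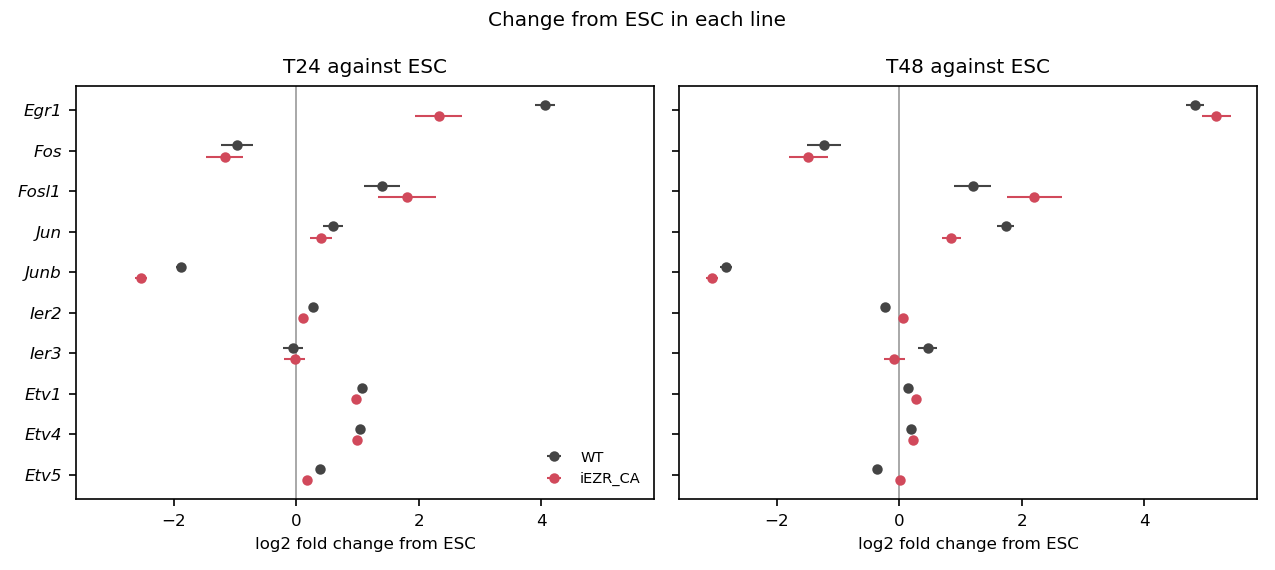
Log2 fold change from ESC to T24 (left) and to T48 (right) in WT (grey) and iEZR_CA cells (red), with bars of 1 SE. Egr1 reached 4.06 (WT) and 2.33 (iEZR_CA) at T24, then 4.84 and 5.18 at T48.

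Levels of different genes were compared as CPM per kilobase of exon, with all annotated exons of a gene merged into 1 length. This length was 13296 bases for Etv1 and 1131 to 4484 for the others. The place of Etv1, and its share among the PEA3 genes, depend on it. In WT ESCs the order ran from Etv5 (100.9 ± 0.474, SD, n = 3) through Ier2 (86.8 ± 3.51), Etv4 (24.4 ± 0.799), Junb (9.86 ± 0.0522), Ier3 (2.75 ± 0.352), Etv1 (1.55 ± 0.0499), Jun (0.668 ± 0.0551), Fos (0.613 ± 0.108) and Fosl1 (0.268 ± 0.0946) to Egr1 (0.166 ± 0.0379). Jun and Fos, and Fosl1 and Egr1, were neighbours within their spread. Etv5, Ier2 and Etv4 held the first 3 places in all 6 groups. In WT T48 cells Egr1 had moved from last to the fourth place (4.98 ± 0.560), with libraries that overlapped those of Ier3 below it (3.87 ± 0.850). In iEZR_CA T48 cells Egr1 held the sixth place (1.98 ± 0.234), overlapping by 1 library with Etv1 above it (2.32 ± 0.108). In iEZR_CA T24 cells Fosl1 (0.309 ± 0.0473), Egr1 (0.264 ± 0.0837) and Fos (0.236 ± 0.0535) came last, within their spread.

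The other genes of the pathway were followed through 6 lists. The feedback inhibitors of ERK, such as the phosphatase genes Dusp4 and Dusp6 and the Sprouty and Spred genes, are themselves ERK targets. Of these 10 inhibitors, the comparison with WT cells called 2 up and 6 down in ESCs, and 1 up and 7 down both at T24 and at T48 (median log2 fold changes -0.33, -0.49 and -0.35), where all genes had 26.4% to 31.0% up and 28.1% to 30.1% down. With spike-in scaling the inhibitors had 2 up and 4 down, then 0 and 5, then 1 and 5, and 17 of the 36 counts of the 6 lists moved by more than 1.5 times. In WT cells all 10 had risen by T24, when 31.8% of all genes tested were called higher. Spred3, an inhibitor of RAF activation, had 424 ± 22.5 normalized counts in WT and 93.0 ± 6.0 in iEZR_CA cells at T24 (log2 fold change -2.16, SE 0.0895), and was also the gene that differed most downward at T48 (-1.96, SE 0.0575). In ESCs Spry4 was higher (0.61) and Dusp4 lower (-1.06), and Il17rd, which binds FGF receptors, was higher at T24 (0.13) and T48 (0.86). All these passed edgeR's test with adjusted p-values of 0.00741 or below. Dusp4 was sparse in ESCs, with 25.9 ± 6.05 normalized counts in WT and 12.1 ± 4.58 in iEZR_CA cells.

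A list of 19 other immediate early genes, of which 16 were tested, had 3 called up and 7 down in iEZR_CA ESCs, 4 and 8 at T24, and 4 and 11 at T48 (median log2 fold changes -0.23, -0.48 and -0.35). Over all genes tested, 26.4% to 31.0% were called up and 28.1% to 30.1% down at these stages. The genes of the list called down numbered 3, 5 and 7 with spike-in scaling. Egr2, Egr3 and Fosb were not tested, with means of at most 8.51 normalized counts in any group. Myc, a growth regulator, was lower in iEZR_CA ESCs (-1.14) and at T24, with 2204 ± 15.6 normalized counts in WT and 694.8 ± 21.04 in iEZR_CA cells (-1.67, SE 0.0544, adjusted p = 3.0e-28 by edgeR). Dusp1, a phosphatase of MAP kinases, was lower at T48 (-1.12). Ccn1, a secreted matrix protein known as a target of SRF and YAP, went the other way, with 341 ± 18.9 against 1276 ± 27.7 at T24 (1.92, SE 0.0590, adjusted p = 2.5e-39 by edgeR) and 1.52 in ESCs, and Klf6 was higher at T48 (1.12).

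Upstream of the 10 genes, the list of 16 FGF ligands, receptors and adaptors had 8 higher and 4 lower in iEZR_CA ESCs, 10 and 3 at T24 and 10 and 2 at T48 (median log2 fold changes 0.10, 0.26 and 0.32). Among all genes tested, 26.4% to 31.0% were called higher and 28.1% to 30.1% lower. Fgf15, a secreted FGF, was lower at T24, with 388 ± 22.2 in WT and 17.8 ± 3.58 in iEZR_CA cells (-4.44, SE 0.148, adjusted p = 3.0e-37 by edgeR), and at T48 (-1.01). Fgfr2 was higher at T24 (0.67), the adaptor Frs2 higher in ESCs (0.39) and the exchange factor Sos2 higher at T48 (0.92). In ESCs Fgf5 was called lower (adjusted p = 0.00457 by edgeR) at very low levels, 6.16 ± 3.35 normalized counts in WT and 0.933 ± 1.62 in iEZR_CA cells.

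The cascade from RAS to RSK (14 genes) was called in both directions, with 5 higher and 4 lower in ESCs, 5 and 5 at T24 and 6 and 4 at T48 (median log2 fold changes 0.05, -0.02 and 0.06). Across all genes tested the shares were 26.4% to 31.0% higher and 28.1% to 30.1% lower. Mapk3, the gene of ERK1, was higher in iEZR_CA ESCs (0.63) and Nras lower (-0.29). At T24 the scaffold gene Ksr1 was higher (0.70) and Braf lower, with 2996 ± 178 in WT and 1547 ± 50.9 in iEZR_CA cells (-0.94, SE 0.0591, adjusted p = 7.7e-11 by edgeR). At T48 Ksr1 was higher (1.10) and Rps6ka3, the gene of RSK2, lower (-0.58).

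Of serum response factor and its 5 cofactors, 2 were higher and 1 lower in ESCs, and 3 higher and 1 lower at T24 and at T48 (median log2 fold changes -0.02, 0.09 and 0.09). Srf itself had 2757 ± 173 normalized counts in WT and 1681 ± 122 in iEZR_CA cells at T24 (-0.73, SE 0.0673, adjusted p = 1.5e-07 by edgeR) and was lower at T48 (-0.64). Elk3, a ternary complex factor, was higher at each stage (0.77, 1.60 and 1.54), and Elk1 lower in ESCs (-0.25). Of the 5 genes for capicua, its ataxin partners and the ubiquitin ligase that degrades ETV proteins, 3 were higher and 1 lower in ESCs and 2 higher and 1 lower at T24 and T48 (median log2 fold changes 0.12, 0.12 and 0.07). Beside both lists, 26.4% to 31.0% of all genes tested were called higher and 28.1% to 30.1% lower. Atxn1l, which stabilizes capicua, had 295 ± 16.9 in WT and 107 ± 11.6 in iEZR_CA cells at T24 (-1.46, SE 0.0995, adjusted p = 5.9e-21 by edgeR) and was lower in ESCs (-1.17) and at T48 (-1.25), while Atxn1 was higher (1.27, 1.55 and 1.02). Atxn1l lies on chromosome 8, as do Dusp4, Junb and Ier2.

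**Figure D5:**
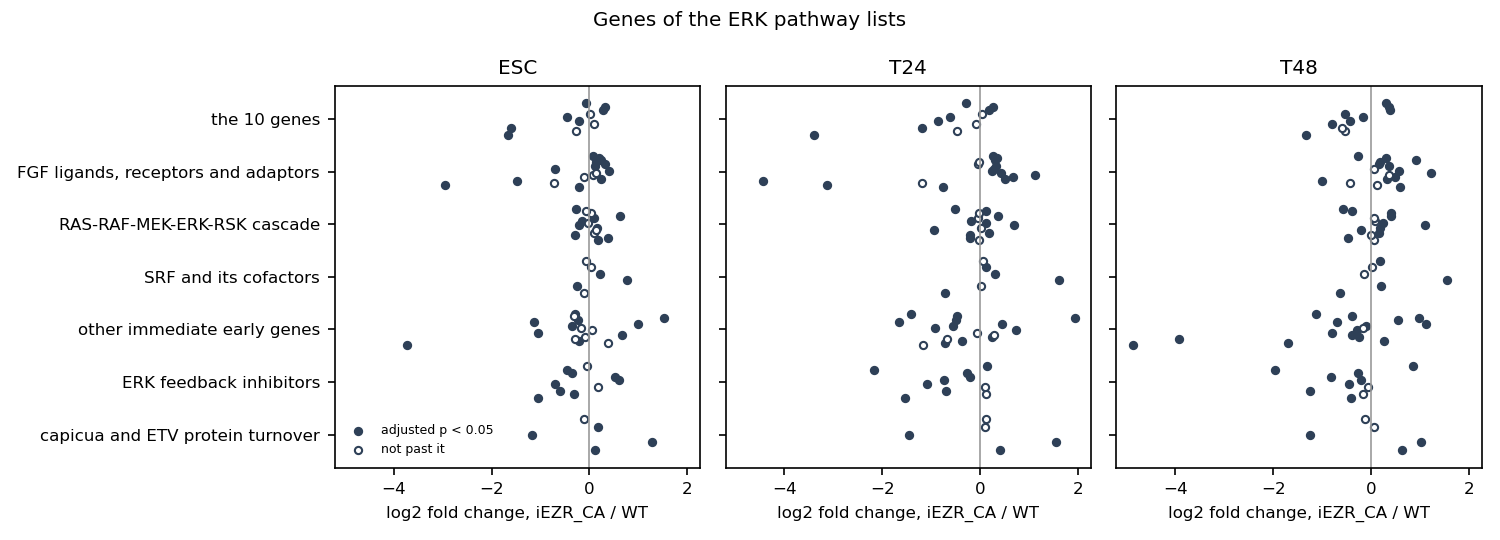
Log2 fold change, iEZR_CA over WT, of the genes of each list (rows) at each stage; each point is 1 gene tested, filled where the adjusted p-value was under 0.05 by edgeR. Feedback inhibitors and other immediate early genes have more filled points below 0 than above it, 7 against 1 and 8 against 4 at T24 (all genes tested, 30.1% lower and 30.8% higher).

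Immediate early genes also respond to handling stress, and 7 heat shock genes were followed beside them. Their summed level was 2574 to 2638 CPM in WT and 2493 to 2518 in iEZR_CA ESCs, 2435 to 2531 and 2442 to 2474 at T24, and 2156 to 2221 and 2380 to 2392 at T48, with 1 higher and 5 lower in ESCs, 2 and 3 at T24 and 4 and 2 at T48. The naive list had 0 genes higher and 5 lower in iEZR_CA ESCs, and 6 higher and 1 lower at T24 and at T48. Shares over all genes tested were 26.4% to 31.0% higher and 28.1% to 30.1% lower at these stages. The 5 early post-implantation markers summed to 164 to 167 CPM in WT and 182 to 194 in iEZR_CA ESCs, 1965 to 2074 and 736 to 781 at T24, and 3631 to 3906 and 1854 to 1955 at T48, with 1 higher and 3 lower, 0 and 5, and 1 and 3. These stage markers also differed between the lines, and their part in the differences of the 10 genes was not tested. In bulk RNA a change in the fraction of cells that express a gene and a change per cell cannot be told apart.

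Markers of other cell types were not equal between the lines, and single genes carried some of the sums. The 7 primitive endoderm markers summed to 11.3 to 12.4 CPM in WT and 35.5 to 38.2 in iEZR_CA ESCs, 6.18 to 8.02 and 18.6 to 21.01 at T24, and 14.3 to 16.1 and 11.1 to 12.9 at T48 (2 genes higher and 2 lower, 1 and 0, and 1 and 4). Dab2 carried the sum in ESCs, with 45.2 ± 11.1 normalized counts in WT and 631 ± 19.0 in iEZR_CA cells, whereas Gata4 had 97.5 ± 5.65 and 17.4 ± 2.01. The 6 trophectoderm markers, of which 5 were tested, summed to 138 to 140.3 and 89.9 to 95.5 CPM in ESCs, and to at most 22.1 CPM in every later group (3 and 1, 3 and 0, and 2 and 2). Most of the sum in ESCs was Tfap2c, with 2855 ± 50.9 normalized counts in WT and 1758 ± 56.1 in iEZR_CA cells, whereas Gata3 had 28.1 ± 1.78 and 138 ± 2.58. The 4 mesoderm markers stayed at or under 2.67 CPM in sum (0 and 1, 2 and 0, and 0 and 0 of 3 tested). The 6 fibroblast markers, with Postn and Twist2 at under 1 normalized count in every group, stayed at or under 3.47 CPM except in WT T48 cells at 17.0 to 19.1 (1 and 0, 1 and 0, and 0 and 3 of 3 tested). For comparison, 26.4% to 31.0% of all genes tested were called higher and 28.1% to 30.1% lower. The part of these cell types in the differences of the 10 genes was not tested.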

How the data were processed

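RNA-seq was analysed for 18 libraries, 3 for each line (WT, iEZR_CA) and stage (ESC, T24, T48). Groups came from the labels, whose titles are plate wells with no replicate number, so replicates were numbered in accession order. The study describes the libraries of a group as biological replicates. The authors trimmed reads with Trim Galore 0.6.5, aligned them to the mouse genome with GSNAP and counted them per gene with HTSeq. The deposited values are whole-number counts per gene with no normalization, on Ensembl identifiers. The strand setting of the counting is not given in the sources used here. Rows for 92 spike-in sequences and 5 classes of reads outside genes (21.3% to 24.3% of a library) were left out of library sizes and tests; 0 columns of samples were unused. Symbols, positions and exon lengths came from GENCODE M21 on GRCm38, which matched 53706 identifiers and not 95, and promoter windows from RefSeq.

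Tests used edgeR 4.0.16 (R 4.3.3) on the counts, with filterByExpr by group, TMM scaling (factors 0.975 to 1.03), one fit of 6 group terms over all 18 libraries (12 residual degrees of freedom, common biological coefficient of variation 2.98%), robust quasi-likelihood tests and Benjamini-Hochberg adjustment over all 18469 genes. Contrasts compared the lines within each stage, the 3 pairs of stages in each line, and the difference between the lines in the change from ESC. Normalized counts used DESeq2 1.42.0 size factors. The step was tested on simulated data. Shares of single values were compared with an exact permutation test over libraries. Intervals cover counting error only.

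All 10 genes and Ezr were named, and, from each pathway list at each stage, the largest rise and fall between the lines among genes called with a mean of at least 50 normalized counts. The 10 genes and the lists (6 of the pathway, plus heat shock, naive, post-implantation, primitive endoderm, trophectoderm, mesoderm and fibroblast markers) were chosen with earlier results of these data known. The TATA, STAT and TGACG motifs were added after the windows had been searched and the values of the genes seen. Alternatives were DESeq2, DESeq2 size factors in edgeR, spike-in scaling, no filter, at least 10 counts in every library, only the compared libraries, values relative to the chromosome median, and each library left out in turn.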

Additional observations from a re-analysis of the deposited data

Results flagged for a closer look

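The change from ESC differed between iEZR_CA and WT cells, by edgeR's test of the difference itself, for 4 of the 10 genes at T24, all lower, and for 2 higher and 2 lower at T48. Over all genes tested 21.5% were called higher and 16.9% lower at T24, and 25.7% and 20.0% at T48. The difference (iEZR_CA minus WT, log2 scale) was -1.73 for Egr1 (SE 0.565, adjusted p = 0.0109 by edgeR), -0.65 for Junb (SE 0.141, adjusted p = 1.2e-04), -0.16 for Ier2 (SE 0.0481, adjusted p = 0.00662) and -0.22 for Etv5 (SE 0.0371, adjusted p = 8.4e-07). Egr1 and Etv5 rose less in iEZR_CA cells, Ier2 rose less, and Junb fell more.

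At T48 the difference was -0.89 for Jun (SE 0.223, adjusted p = 6.3e-04 by edgeR) and -0.55 for Ier3 (SE 0.231, adjusted p = 0.0443), and 0.29 for Ier2 (SE 0.0488, adjusted p = 5.6e-07) and 0.38 for Etv5 (SE 0.0375, adjusted p = 1.6e-13). The value for Ier3 was -0.31 with an adjusted p of 0.315 by edgeR without WT T48 replicate 1. It also did not pass without WT ESC replicate 1 or 2, iEZR_CA ESC replicate 3 or iEZR_CA T48 replicate 2 or 3 (adjusted p = 0.0662 to 0.131 by edgeR), with no filter on low counts (0.0969) or by DESeq2 (0.138). The value for Egr1 at T24 had an adjusted p of 0.0528 without iEZR_CA ESC replicate 1, and that for Ier2 at T24 one of 0.135 with no filter. Ier2 and Etv5 had fallen below their ESC level in WT cells at T48, with log2 fold changes of -0.23 and -0.37, and in iEZR_CA cells they stood at 0.06 and 0.01, neither past the threshold. The differences of both genes had opposite signs at T24 and T48. With spike-in scaling Egr1 at T24 and Jun at T48 passed, and the other 6 differences did not (Junb, Ier2 and Etv5 at T24, adjusted p = 0.0609, 0.741 and 0.558, and Ier2, Ier3 and Etv5 at T48, 0.304, 0.136 and 0.129 by edgeR). In the same order, these 6 were -0.62, -0.14 and -0.21 at T24 and 0.28, -0.60 and 0.37 at T48. They lay close to the values without spike-in scaling, with larger SEs of 0.176 to 0.289. On that scale the WT changes from ESC to T48 were 0.031 for Ier2 and -0.11 for Etv5, neither past the threshold, and Ier2 was called higher in iEZR_CA cells (0.31, adjusted p = 0.0264), as it also was when 10 counts in every library were required (0.08, adjusted p = 0.0398). The 2 sets of differences share the ESC libraries.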

How the results depend on the processing

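Scaling to spike-in RNA, which took 0.575% to 0.884% of reads, moved 9 of the 22 counts of the 10 genes by more than 1.5 times. Against WT cells it left 1 higher and 3 lower in iEZR_CA ESCs, then 1 higher (T24) and 3 lower (T48). It left 2 lower from ESC to T48 in WT cells and 2 lower from T24 to T48 in iEZR_CA cells. For the change from ESC it left 1 lower at T24, and at T48 1 lower and 0 higher. The fall of Ier2 from ESC to T48 in WT cells reversed to 0.031 (adjusted p = 0.839 by edgeR). Spike-in scaling shifted the median of all genes by 0.06, 0.07 and 0.04 between the lines in ESCs, at T24 and at T48, and by 0.14 and 0.26 from ESC in WT cells and 0.15 and 0.25 in iEZR_CA cells; the cause was not tested. Requiring 10 counts in every library, which leaves 7 of the 10 genes tested and drops Egr1, Fos and Fosl1, gave 3 lower in iEZR_CA ESCs, 3 lower at T24, 1 lower from ESC to T24 in each line, 1 lower from ESC to T48 and 1 higher from T24 to T48 in iEZR_CA cells. With no filter the change from ESC to T48 was lower for 1 gene, and 5 calls of single genes were lost. With only the ESC libraries fitted, 3 were lower in iEZR_CA ESCs. DESeq2 gave 1 higher from T24 to T48 in iEZR_CA cells and 1 lower for the change to T48. Leaving out single libraries, the genes lower for the change to T48 numbered 1 to 2 and those higher from T24 to T48 in iEZR_CA cells 1 to 2; without iEZR_CA T24 replicate 2 or T48 replicate 1, Jun no longer passed there (adjusted p = 0.0778 and 0.109 by edgeR). DESeq2 size factors in edgeR changed none of the 110 calls of single genes.

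No paired analysis was possible because the labels carry no replicate number. Depth limited Fos, with 30 to 104 reads per group, and Egr1 and Fosl1 in ESCs, where iEZR_CA cells had 14 and 10 reads.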

Other observations

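Among the other immediate early genes, 3 close relatives of the 10 stood apart at T48, below the mean level that the rule for named genes required, and were chosen after their values were seen. Atf3, a stress-responsive factor that can pair with Jun, had 187 ± 12.7 normalized counts in WT and 11.8 ± 2.87 in iEZR_CA T48 cells (SD, n = 3; log2 fold change -3.93, SE 0.185, adjusted p = 5.4e-29 by edgeR), whereas at T24 it had 13.1 ± 3.19 and 8.04 ± 3.61 (adjusted p = 0.0900). Egr4, a relative of Egr1, had 64.6 ± 5.99 in WT T48 cells, with means of 1.02 to 2.83 in the iEZR_CA groups. Fosl2, which encodes FRA2, had 105 ± 7.02 in WT and 31.9 ± 1.55 in iEZR_CA T48 cells (log2 fold change -1.70, SE 0.178, adjusted p = 5.0e-13 by edgeR). In ESCs its log2 fold change of 0.37 did not pass (SE 0.260, adjusted p = 0.229 by edgeR).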
